A study of Mus musculus with 10 samples.

Results

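The genes described are 51 genes of the lysosomal membrane, the lysosomal hydrolases and the lysosomal proton pump, chosen by symbol with the cathepsins left out. They comprise 11 membrane proteins and transporters, 7 enzymes that degrade glycosaminoglycans, 8 enzymes and activators of sphingolipid breakdown, 9 other hydrolases, and 16 pump subunits. All 51 were among the 54532 genes of the count table, and all 51 passed the low-count filter, which kept 14360 genes. Lysosomes are acidic compartments in which endocytosed and autophagic cargo is broken down. The vacuolar proton pump (V-ATPase), made of a membrane sector, V0, and a cytosolic sector, V1, acidifies them, and soluble hydrolases digest the cargo. In fibroblasts they receive collagen taken up by MRC2, an endocytic collagen receptor. The transcription factor TFEB and its relatives bind the CLEAR element, an extended E-box, in many lysosomal genes.

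The libraries came from primary fibroblasts of mouse lung, cultured in DMEM with 10% fetal bovine serum and taken at baseline. There were 5 libraries of wild-type cells and 5 of cells labelled Mrc2 knockout. The sources used here do not give age, sex, strain or the design of the knockout allele. The labels call the samples biological replicates without naming animals, so p-values refer to the spread among these libraries, which may be technical. Total counts ran from 19603933 to 29944615 reads assigned to genes, and a member had between 135 and 83311 reads in a library. Mrc2, the targeted gene, lay between 568 and 1027 CPM (counts scaled to library size) in wild type and between 206 and 282 CPM in the knockout libraries (adjusted p = 0.00293 by edgeR). All libraries carry 1 batch label, but their library names fall into separate number runs by genotype, so anything handled by run cannot be told apart from genotype. The name of knockout replicate 5 lies outside the run of the other 4 knockout libraries. All 9 fibroblast markers were measured, and they went both ways: 6 had a log2 fold change (knockout over wild type) above 0 and 3 below 0. An unadjusted edgeR p under 0.05 was seen for 3 as higher (7.19% of all genes tested) and 0 as lower (6.1%). The 9 markers summed to 22434.5 ± 4580 CPM in the wild-type libraries and 34684 ± 7308 CPM in the knockout libraries (SD, n = 5 each). Col1a1 was at 8540.5 ± 2404 CPM in the wild-type libraries and 14765 ± 3459 CPM in the knockout libraries (SD, n = 5 each; log2 fold change 0.79, SE 0.25), while Dcn, Lum and Vim had -0.45 (SE 0.41), -0.77 (SE 0.83) and -0.24 (SE 0.15). Macrophage markers were also present: all 18 were measured, 0 had a count of 0 in any library, and Lyz2, the lysozyme gene of macrophages, was at 5297 ± 2909.7 CPM in the wild-type libraries and 3454 ± 1317 CPM in the knockout libraries. Of 12 epithelial and endothelial markers 8 were too low to be tested, and the others were under 5 CPM in every library. All 4 mesothelial markers were measured, with a median log2 fold change of -0.88 and summed levels of 74.1 to 419.8 CPM in wild type and 48.3 to 189 CPM in knockout. The part of other cell types in the results was not tested.

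Most of these 51 genes, a list chosen with earlier results of these data known, had lower transcript levels in the knockout libraries, by small amounts. Lysosomal genes outside the list varied, from 11 of 20 other hydrolases (median log2 fold change -0.022) to 9 of 11 cathepsins (median -0.28) below 0. Roles within the list varied too: 5 of 7 glycosaminoglycan enzymes and 8 of 11 membrane genes were below 0, against 15 of 16 pump genes. Of the 51 genes 45 had a log2 fold change (knockout over wild type) below 0, or 88.2%, where 51.6% of all genes tested did. The median over the 51 was -0.26, which is 0.834-fold, and the median over all genes tested was -0.012. No single member passed the test over all genes. With edgeR's quasi-likelihood test and Benjamini-Hochberg adjustment, 0 of the 51 had an adjusted p under 0.05 (0.0139% of all genes tested had one), and the lowest adjusted p of a member was 0.210. Unadjusted, 20 members had p under 0.05 as lower and 0 as higher, against 6.1% and 7.19% of all genes tested (13.3% in either direction). DESeq2 called 7 members, all lower (background 0.675%), and 0 higher (1.02%). The 7 were Lamp1, Tmem192 and the pump genes Atp6ap1, Atp6v0a1, Atp6v0d1, Atp6v1e1 and Atp6v1h. In 4 members all knockout values lay below all wild-type values (background 1.09%), and in 0 they lay above (0.961%). In 27 members all 5 knockout libraries lay below the wild-type mean of log2 CPM. The same share was not counted over all genes, so this number only describes the members. Knockout replicate 5 weighed on these counts: without it edgeR called 4 members, Tmem192, Atp6v1e1, Atp6v0d1 and Hexa, all lower, and 14 had non-overlapping groups, all lower. Over all genes the calls also went up, from 2 to 203, with 0.507% of genes called as lower and 5.35% non-overlapping and lower.

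The mean of the 51 genes, each centred on its own mean log2 CPM over the 10 libraries, was 0.14, 0.19, 0.017, 0.03 and 0.24 in wild-type replicates 1 to 5 and -0.21, -0.17, 0.014, -0.12 and -0.13 in knockout replicates 1 to 5. Every wild-type library therefore lay above every knockout library, though by a narrow margin between wild-type replicate 3 and knockout replicate 3. Scored by role, only the V0 and accessory genes kept the genotypes apart (lowest wild type 0.042, highest knockout -0.050). The 16 pump genes together also did. All other roles overlapped, for example the membrane genes (lowest wild type -0.0053, highest knockout 0.052) and V1 (0.0014 and 0.015). Together the 51 genes summed to 12561 ± 927 CPM in the wild-type libraries and 10328 ± 995 CPM in the knockout ones (SD, n = 5 each), and these sums overlapped. In bulk RNA, fewer cells of a type and less RNA per cell cannot be told apart. Wild-type replicate 5 held the highest value of 20 members, and it also had the highest summed level of macrophage markers: 14821 CPM, against 3026 to 8295 CPM in the other wild-type libraries and 3831 to 8344 CPM in the knockout libraries. Of the 18 markers 14 lay below 0, and their median log2 fold change was -0.19. Without wild-type replicate 5, 44 of the 51 members were below 0 and their median was -0.24. In that setting 16 had an unadjusted edgeR p under 0.05 as lower (4.73% of all genes tested), against 20 with all libraries (6.1%). The part of macrophages in these values was not tested.

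**Figure D1:**
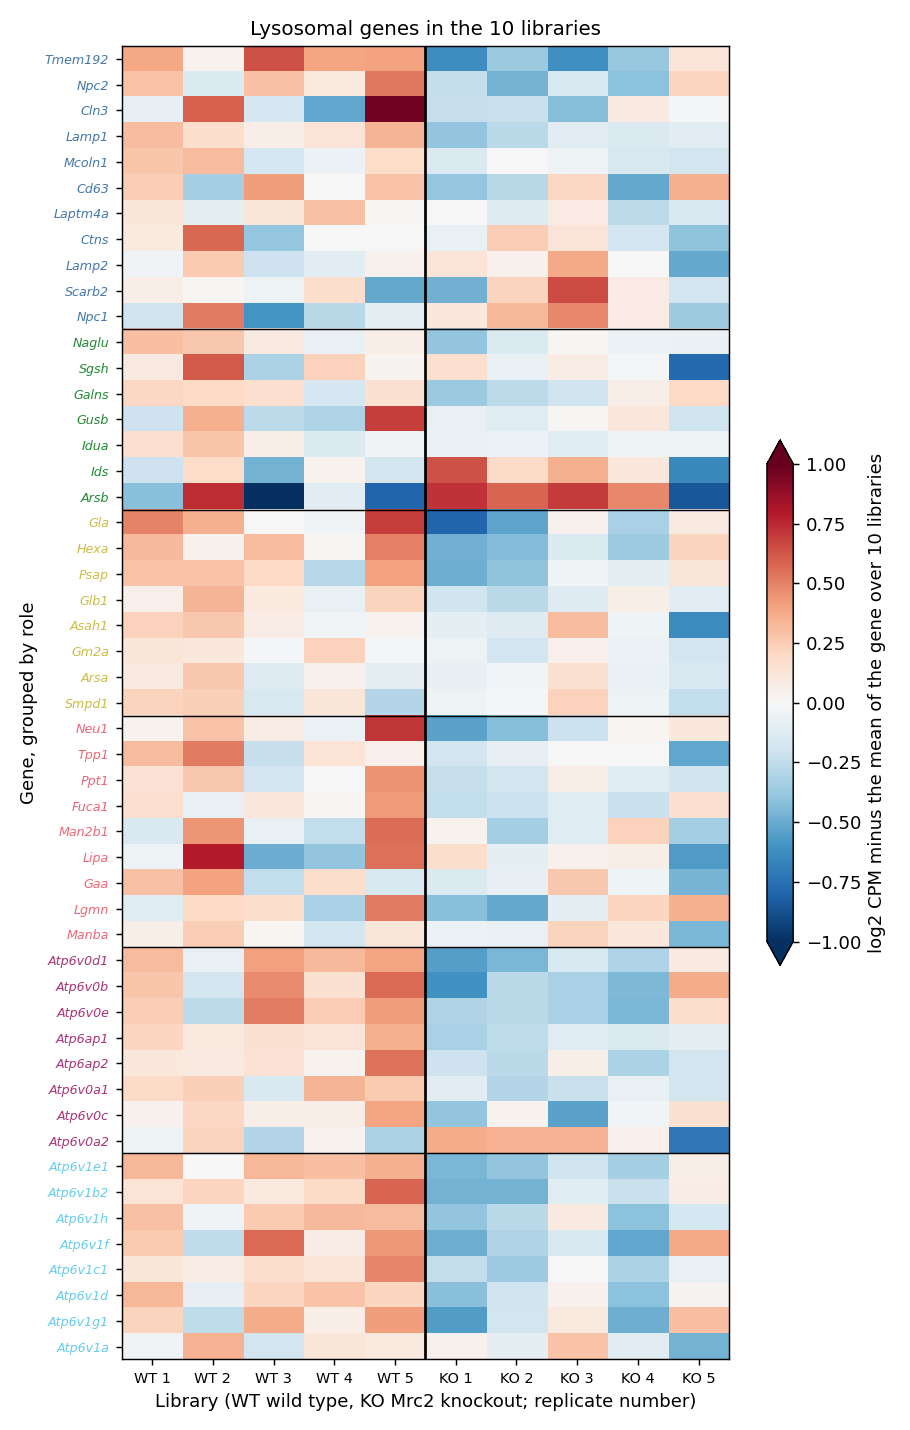
Each row is 1 of the 51 genes and each column 1 library, with wild type on the left and knockout on the right; colour is log2 CPM minus the mean of that gene over the 10 libraries, and colours stop at 1 and -1. The pump rows in the lower part are mostly red in wild type and blue in knockout, while Arsb, Ids, Npc1 and Atp6v0a2 are red in several knockout libraries and blue in knockout replicate 5.

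Promoter windows are shown because TFEB is known to act through an E-box in genes of this kind. RefSeq windows of 300 bases in build GRCm38.p6, the assembly of mm10, were matched by symbol for 43 of the 51 members. A window held 250 bases before and 50 after the RefSeq start of a gene, which is the start meant below. That start can differ from the gene start in the deposited table, as for Mcoln1, Gla and Atp6v0d1. The E-box CACGTG, which reads the same on both strands, was found in 14 of the 43 (32.6%), and in 11.6% of the 10566 tested genes with a window. Over windows, rather than genes, the shares were 28.6% for members, 9.76% for the 13516 windows of tested genes and 7.15% for all 32851 windows. The longer palindrome TCACGTGA, which contains it, was in 6 members and in 2.12% of tested genes. The 14 members with CACGTG had log2 fold changes from -0.60 to -0.074, all below 0, with a median of -0.26. The 29 with a window and no CACGTG ranged from -0.73 to 0.61, with 25 below 0 and a median of -0.26. A difference between these sets was not tested. A match is a stretch of letters, not evidence of binding. The windows printed, 5′ to 3′, are those of Lamp1 at chr8:13158911-13159210 (plus strand), which held the most copies, of Atp6v0d1 at chr8:105566015-105566314 (minus strand), with a copy next to its start, and of Gla at chrX:134600956-134601255 (minus strand) and Mcoln1 at chr8:3500269-3500568 (plus strand). Capitals mark CACGTG.
Lamp1: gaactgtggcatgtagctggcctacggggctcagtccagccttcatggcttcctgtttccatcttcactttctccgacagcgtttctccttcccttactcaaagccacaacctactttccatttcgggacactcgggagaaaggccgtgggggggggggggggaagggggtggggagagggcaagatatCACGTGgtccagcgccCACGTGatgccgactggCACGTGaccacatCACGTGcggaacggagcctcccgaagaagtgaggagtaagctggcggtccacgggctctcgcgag
Atp6v0d1: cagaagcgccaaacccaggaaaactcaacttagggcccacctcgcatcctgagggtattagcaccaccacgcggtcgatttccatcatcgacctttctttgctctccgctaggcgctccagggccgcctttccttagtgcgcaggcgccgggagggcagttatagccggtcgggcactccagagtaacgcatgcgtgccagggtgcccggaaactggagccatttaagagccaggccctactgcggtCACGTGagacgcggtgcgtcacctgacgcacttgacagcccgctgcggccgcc
Gla: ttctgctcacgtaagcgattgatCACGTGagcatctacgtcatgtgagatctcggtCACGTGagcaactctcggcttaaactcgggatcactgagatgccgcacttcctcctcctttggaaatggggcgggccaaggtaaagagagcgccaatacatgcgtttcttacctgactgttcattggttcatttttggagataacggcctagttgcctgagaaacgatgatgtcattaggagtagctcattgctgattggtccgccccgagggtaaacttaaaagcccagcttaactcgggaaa
Mcoln1: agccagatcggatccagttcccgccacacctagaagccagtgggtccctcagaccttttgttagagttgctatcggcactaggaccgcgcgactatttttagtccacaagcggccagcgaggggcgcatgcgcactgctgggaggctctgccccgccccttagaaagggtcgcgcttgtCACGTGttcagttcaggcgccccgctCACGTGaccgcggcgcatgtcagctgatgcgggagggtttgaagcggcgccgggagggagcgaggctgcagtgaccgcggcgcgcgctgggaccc
The 4 copies of Lamp1 began 61, 45, 28 and 15 bases before its start, the copy of Atp6v0d1 3 bases before, those of Gla 227 and 194 bases before and those of Mcoln1 71 and 45 bases before.

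Among the genes of the lysosomal membrane, 8 of 11 had a log2 fold change below 0 and 3 above, with a median of -0.23. None passed the edgeR test, 3 had an unadjusted p under 0.05, all lower (6.1% of all genes tested), and DESeq2 called 2, both lower (0.675%). Lamp1 (ENSMUSG00000031447; mm10 chromosome 8, 13159161 to 13175338, plus strand) encodes an abundant glycoprotein that lines the membrane, and it had the most transcript per length of these genes by the gene lengths of the deposited table (Cd63 by principal transcript). It was at 1261, 1150.2, 1062, 1109 and 1283 CPM in wild-type replicates 1 to 5 and at 773, 844, 938, 921 and 946 CPM in knockout replicates 1 to 5. The lowest wild-type library stood above the highest knockout library (fitted log2 fold change -0.41 with SE 0.11; adjusted p = 0.258 by edgeR; DESeq2 adjusted p = 0.00492). Lamp1 overlaps another tested gene, Grtp1, and the sources used here give no strand setting for the counting. Tmem192 (ENSMUSG00000025521; mm10 chromosome 8, 64947185 to 64969033, plus strand), a homodimeric membrane protein often used to tag lysosomes, was much scarcer. Its levels were 28.4, 22.2, 33.8, 28.5 and 28.7 CPM in the wild-type libraries and 14.1, 16.8, 14.2, 16.7 and 23.8 CPM in the knockout libraries, in replicate order. Knockout replicate 5 was above wild-type replicate 2, so the groups overlapped, while the other 4 knockout libraries lay below all of wild type (fitted log2 fold change -0.73 with SE 0.16; adjusted p = 0.210 by edgeR; DESeq2 adjusted p = 0.0115). Without knockout replicate 5 the edgeR adjusted p of Tmem192 was 0.0329, and with other single libraries left out it reached 0.593. Lamp2, the other major LAMP protein and a receptor of chaperone-mediated autophagy in 1 of its isoforms, was at 392 ± 49.6 CPM in the wild-type libraries and 403 ± 84.8 CPM in the knockout libraries (SD, n = 5 each; fitted log2 fold change 0.039 with SE 0.16; adjusted p = 0.922 by edgeR).

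The other membrane and cholesterol genes did not share 1 direction. Npc2 and Npc1 act in turn to carry cholesterol out of lysosomes: the soluble protein NPC2 hands it to the membrane protein NPC1. Npc2 was at 559 ± 93.9 CPM in the wild-type libraries and 417 ± 82.7 CPM in the knockout libraries (fitted log2 fold change -0.42 with SE 0.16; adjusted p = 0.343 by edgeR; SD, n = 5 each). Npc1, in contrast, was at 72.2, 119, 54.6, 68.3 and 77.1 CPM in the wild-type libraries and 89.1, 104, 115, 87.4 and 64.6 CPM in the knockout libraries (fitted log2 fold change 0.24 with SE 0.21; adjusted p = 0.601 by edgeR). Its highest wild-type value, in replicate 2, was above every knockout value, and its knockout values in replicates 1 to 4 were above the 4 other wild-type values. Scarb2, which encodes the membrane protein LIMP-2, had a log2 fold change of 0.15 (SE 0.20), and its sign turned without knockout replicate 3. Mcoln1, a calcium channel of lysosomes, had -0.23 (SE 0.11), with values between 39.7 and 55.9 CPM in wild type and between 39.6 and 44.8 CPM in the knockout libraries. The tetraspanin gene Cd63 had -0.23 (SE 0.20), and Laptm4a, a small membrane protein, -0.19 (SE 0.11). The cystine exporter gene Ctns and the Batten disease gene Cln3 had -0.13 (SE 0.18) and -0.41 (SE 0.25). The edgeR adjusted p-values of these 6 genes lay between 0.405 and 0.749.

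**Figure D2:**
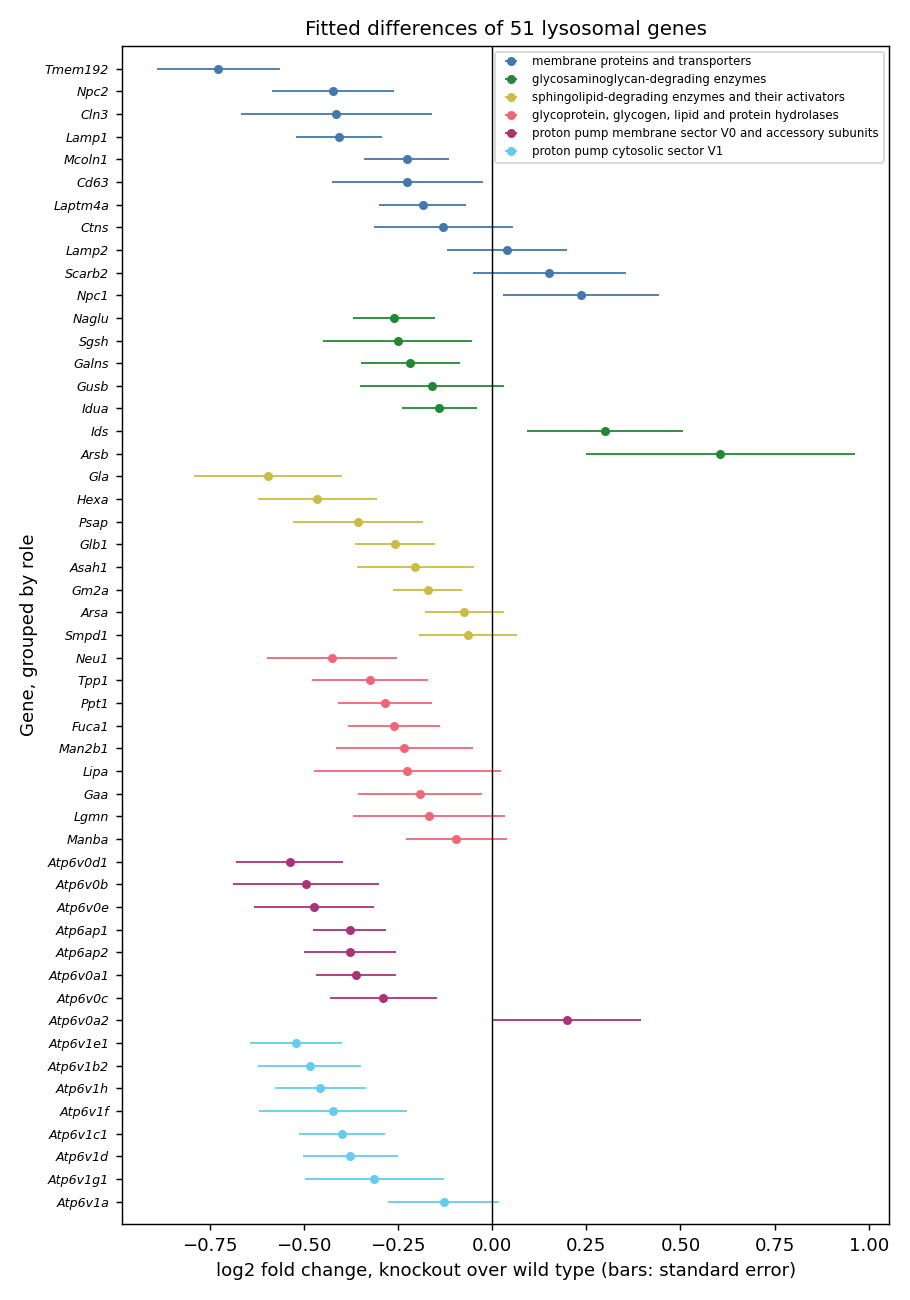
Points are fitted log2 fold changes (knockout over wild type) of the 51 genes with their standard errors as bars, coloured and grouped by role, from all 10 libraries. 45 points lie left of 0, and the 6 on the right are Lamp2, Scarb2, Npc1, Ids, Arsb and Atp6v0a2.

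Enzymes that degrade glycosaminoglycans, the sugar chains of matrix proteoglycans, had 5 of 7 log2 fold changes below 0 and a median of -0.16. 1 had an unadjusted p under 0.05, as lower (6.1% of all genes tested), and 0 passed edgeR or DESeq2. Naglu, which removes N-acetylglucosamine from heparan sulfate, was at 111, 109, 95.9, 85.7 and 94.5 CPM in the wild-type libraries and 68.9, 81.5, 91.0, 86.6 and 86.4 CPM in the knockout libraries. Knockout replicates 1 and 2 lay below all wild-type values, and the others were within the wild-type range (fitted log2 fold change -0.26 with SE 0.11; adjusted p = 0.355 by edgeR). Sgsh and Idua, which act on heparan sulfate, had -0.25 (SE 0.20) and -0.14 (SE 0.10), and Galns, which removes sulfate from keratan and chondroitin sulfate, -0.22 (SE 0.13). Gusb, the beta-glucuronidase with the most transcript per length of the group, had -0.16 (SE 0.19). Its wild-type values ran from 149 to 296 CPM, and the sign turned to 0.019 without wild-type replicate 5. The 2 members above 0, Arsb and Ids, are sulfatase genes, as are Galns and Sgsh below 0. Arsb, which removes sulfate from dermatan and chondroitin sulfate, was at 11.2, 25.0, 7.23, 13.8 and 8.61 CPM in the wild-type libraries and 24.7, 22.4, 24.2, 20.9 and 8.33 CPM in the knockout libraries (fitted log2 fold change 0.61 with SE 0.36; adjusted p = 0.456 by edgeR). Wild-type replicate 2 was the highest of all, and knockout replicate 5 lay among the low wild-type libraries. Ids, the iduronate sulfatase, was at 39.6, 51.7, 32.9, 46.7 and 40.2 CPM in the wild-type libraries and 70.9, 52.1, 58.5, 49.2 and 29.2 CPM in the knockout libraries (fitted log2 fold change 0.30 with SE 0.21; adjusted p = 0.511 by edgeR). Knockout replicate 5 was the lowest of all 10, and knockout replicates 1 to 3 were above every wild-type library.

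All 8 genes for sphingolipid breakdown were below 0 on the log2 scale (median -0.23). 3 had an unadjusted p under 0.05, as lower (6.1% of all genes tested), and 0 passed edgeR or DESeq2. Gla, the alpha-galactosidase that is lost in Fabry disease, was at 65.6, 59.2, 46.6, 45.3 and 74.8 CPM in the wild-type libraries and 26.7, 32.2, 47.8, 37.0 and 49.3 CPM in the knockout libraries. Knockout replicates 1, 2 and 4 lay below every wild-type library, and the remaining pair overlapped the low end of wild type (fitted log2 fold change -0.60 with SE 0.20; adjusted p = 0.305 by edgeR). Psap encodes the precursor of the saposins, which present glycolipids to their hydrolases, and had the highest level per length of all 51 genes. It was at 2685, 2698, 2543, 1813 and 2917 CPM in the wild-type libraries and 1573, 1675, 2156, 2073 and 2409 CPM in the knockout libraries, with wild-type replicate 4 inside the knockout range (fitted log2 fold change -0.36 with SE 0.17; adjusted p = 0.394 by edgeR). Hexa, an enzyme gene of ganglioside breakdown, had -0.47 (SE 0.16, edgeR adjusted p = 0.316). Without knockout replicate 5 the edgeR adjusted p of Hexa was 0.0497, and with other single libraries left out it reached 0.602. The beta-galactosidase gene Glb1 had -0.26 (SE 0.11), and the ceramidase gene Asah1 -0.20 (SE 0.16). Gm2a, the activator that presents GM2 ganglioside for breakdown, had -0.17 (SE 0.092). The values closest to 0 were those of the sulfatide sulfatase gene Arsa, -0.074 (SE 0.10), and of the acid sphingomyelinase gene Smpd1, -0.064 (SE 0.13).

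The 9 hydrolases of glycoproteins, glycogen, lipids and proteins were also all below 0, with a median of -0.23. 2 had an unadjusted p under 0.05, as lower (6.1% of all genes tested), and 0 passed edgeR or DESeq2. Neu1, the sialidase of the lysosome, was at 59.5, 70.9, 61.2, 55.8 and 95.2 CPM in the wild-type libraries and 40.1, 43.3, 50.1, 58.9 and 62.7 CPM in the knockout libraries. Wild-type replicate 5 was the highest, and knockout replicates 1 to 3 were below all wild-type values (fitted log2 fold change -0.43 with SE 0.17; adjusted p = 0.350 by edgeR). Without wild-type replicate 5 its log2 fold change was -0.29. Lgmn, which encodes the asparaginyl endopeptidase legumain, had the most transcript per length of this group and was at 341 ± 76.5 CPM in the wild-type libraries and 303 ± 79.1 CPM in the knockout libraries (SD, n = 5 each; fitted log2 fold change -0.17 with SE 0.20; adjusted p = 0.701 by edgeR). The peptidase gene Tpp1 and the thioesterase gene Ppt1, both mutated in neuronal ceroid lipofuscinoses of humans, had -0.32 (SE 0.15) and -0.28 (SE 0.13). Fuca1 and Man2b1, which trim fucose and mannose from glycoproteins, had -0.26 (SE 0.12) and -0.23 (SE 0.18). For Lipa, the acid lipase, and Gaa, the acid alpha-glucosidase that digests glycogen, the values were -0.23 (SE 0.25) and -0.19 (SE 0.16). The smallest difference was that of the beta-mannosidase gene Manba, -0.10 (SE 0.14). The edgeR adjusted p-values of these 8 genes lay between 0.363 and 0.749.

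The subunits of the proton pump were lower in knockout in 15 of 16 cases, with a median log2 fold change of -0.39, or 0.763-fold. None passed edgeR's test. An unadjusted p under 0.05 was seen for 11, all lower (6.1% of all genes tested), and DESeq2 called 5, all lower (0.675%). The mean centred log2 CPM of the 16 genes lay between 0.022 and 0.35 in the wild-type libraries and between -0.32 and -0.018 in the knockout libraries. In the V0 sector and its accessory subunits the median was -0.38 and in the V1 sector -0.41. The same 15 genes stayed below 0 and Atp6v0a2 above 0 in all 22 other settings tried.

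In the membrane sector, Atp6ap1 (ENSMUSG00000019087; mm10 chromosome X, 74297097 to 74304721, plus strand), an accessory glycoprotein needed for assembly of V0, was at 335, 309, 321, 316 and 370.0 CPM in wild-type replicates 1 to 5 and 231, 243, 265, 261 and 269.9 CPM in knockout replicates 1 to 5. The groups did not overlap, and the spread within each was narrow (fitted log2 fold change -0.38 with SE 0.10; adjusted p = 0.234 by edgeR; DESeq2 adjusted p = 0.00218). Atp6v0d1 (ENSMUSG00000013160; mm10 chromosome 8, 105524465 to 105566047, minus strand), the subunit that couples the rotor of V1 to V0, was at 199.8, 152, 213, 201 and 211 CPM in the wild-type libraries and 109.7, 117, 145, 129.9 and 171 CPM in the knockout libraries. Wild-type replicate 2 was lower than knockout replicate 5, and no other pair of libraries crossed (fitted log2 fold change -0.54 with SE 0.14; adjusted p = 0.234 by edgeR; DESeq2 adjusted p = 0.0408). Its edgeR adjusted p was 0.0457 without knockout replicate 5, and with other single libraries left out it reached 0.593. Subunit a, which carries protons through the membrane, exists in several isoforms that direct the pump to different compartments. Atp6v0a1 was at 142, 146, 112, 157 and 149 CPM in the wild-type libraries and 115, 101, 106, 117 and 109 CPM in the knockout libraries, with wild-type replicate 3 within the knockout range (fitted log2 fold change -0.36 with SE 0.11; adjusted p = 0.268 by edgeR; DESeq2 adjusted p = 0.0495). The isoform gene Atp6v0a2, whose product is known from Golgi and endosomal membranes, had a fold change of the opposite sign. It was at 68.3, 82.5, 57.6, 72.3 and 56.7 CPM in the wild-type libraries and 91.4, 89.7, 90.0, 73.1 and 43.0 CPM in the knockout libraries, where replicates 1 to 4 lay above the wild-type mean and replicate 5 was the lowest of all 10 (fitted log2 fold change 0.20 with SE 0.20; adjusted p = 0.644 by edgeR). The difference between the isoforms was not tested. Atp6v0b and Atp6v0c, which encode proteolipids of the rotor ring, had -0.49 (SE 0.19) and -0.29 (SE 0.14), the small subunit gene Atp6v0e -0.47 (SE 0.16), and the accessory gene Atp6ap2, also called the prorenin receptor, -0.38 (SE 0.12). The edgeR adjusted p-values of these 4 genes lay between 0.296 and 0.400.

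In the cytosolic sector all 8 genes were below 0. Atp6v1e1 (ENSMUSG00000019210; mm10 chromosome 6, 120794305 to 120822793, minus strand), part of the peripheral stalks, was at 172, 136, 172, 168 and 174 CPM in the wild-type libraries and 99.2, 103, 119, 108 and 142 CPM in the knockout libraries, in replicate order. Only wild-type replicate 2 and knockout replicate 5 crossed (fitted log2 fold change -0.52 with SE 0.12; adjusted p = 0.229 by edgeR; DESeq2 adjusted p = 0.0136), and without that knockout library the edgeR adjusted p was 0.0332. With other single libraries left out the edgeR adjusted p reached 0.593. Atp6v1h (ENSMUSG00000033793; mm10 chromosome 1, 5070018 to 5162529, plus strand), a subunit that regulates coupling of the sectors, was at 139, 110.5, 136, 142 and 141 CPM in the wild-type libraries and 86.1, 93.8, 121, 85.4 and 100.4 CPM in the knockout libraries. Here knockout replicate 3 exceeded wild-type replicate 2 (fitted log2 fold change -0.46 with SE 0.12; adjusted p = 0.234 by edgeR; DESeq2 adjusted p = 0.0411). Groups did not overlap for a further pair of genes. Atp6v1b2, the non-catalytic B subunit of the ATP-binding head, was at 148, 156, 144, 154 and 202 CPM in the wild-type libraries and 97.2, 96.9, 124, 115 and 142 CPM in the knockout libraries (fitted log2 fold change -0.48 with SE 0.14; adjusted p = 0.258 by edgeR). Atp6v1c1, which links stator and head, was at 96.0, 93.1, 99.4, 96.5 and 124 CPM in the wild-type libraries and 74.8, 68.5, 87.9, 70.7 and 83.9 CPM in the knockout libraries (fitted log2 fold change -0.40 with SE 0.11; adjusted p = 0.258 by edgeR). In both, wild-type replicate 5 stood above the other 4 wild-type libraries. Without it the log2 fold changes were -0.40 and -0.33. The rotor subunit gene Atp6v1d had -0.38 (SE 0.13), and Atp6v1f, a small rotor subunit, -0.42 (SE 0.20). The stalk gene Atp6v1g1, with the most transcript per length of this sector by the deposited gene lengths, had -0.31 (SE 0.19). The smallest difference was in Atp6v1a, the catalytic A subunit, at 225 ± 30.7 CPM in the wild-type libraries and 205 ± 38.3 CPM in the knockout libraries (SD, n = 5 each; fitted log2 fold change -0.13 with SE 0.15; adjusted p = 0.687 by edgeR).

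**Figure D3:**
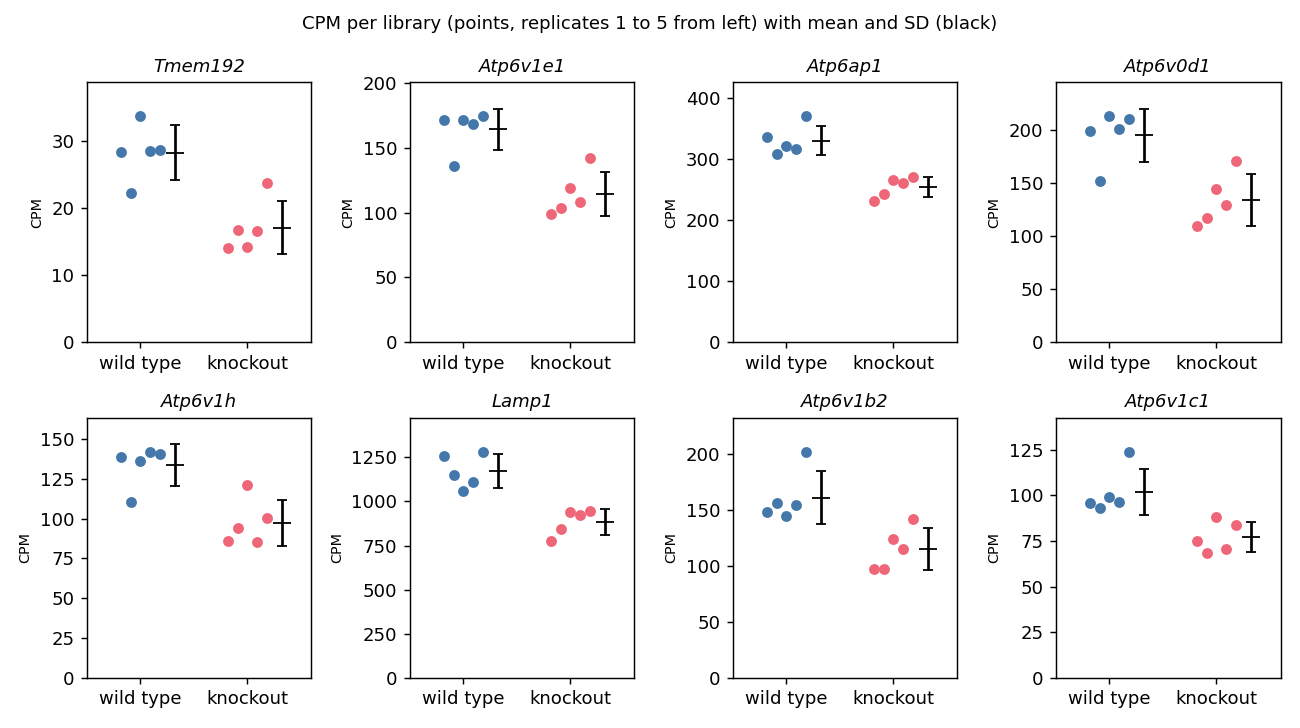
CPM per library, on axes that start at 0, for the 8 members with the smallest unadjusted p; points are replicates 1 to 5 from left to right and black marks are the mean and SD. Knockout points lie below all wild-type points for Lamp1, Atp6ap1, Atp6v1b2 and Atp6v1c1, and 1 wild-type library lies below 1 knockout library in each of the other panels.

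Levels of the pump genes differed more between subunits than between genotypes. Per kilobase of the principal transcript in GENCODE M21, Atp6v0b was the highest at 218 ± 42.5 CPM per kilobase in wild type and 155 ± 44.7 in knockout. Atp6ap1 followed at 151 ± 11.1 and 116 ± 7.53, within 1 SD of Atp6v1f at 149 ± 31.6 in wild type. The 3 lowest in wild type were Atp6v0a1 at 35.2 ± 4.32 CPM per kilobase, Atp6v1d at 26.9 ± 2.81 and Atp6v0a2 at 12.6 ± 2.02. In knockout these genes stood at 27.4 ± 1.62, 20.7 ± 3.22 and 14.5 ± 3.87 (SD, n = 5 each). The catalytic subunit gene Atp6v1a, at 53.0 ± 7.25, and its partner Atp6v1b2, at 57.0 ± 8.35, were alike within their spread in wild type. Over all 51 genes wild-type levels ran from 3.26 (Arsb) to 953 CPM per kilobase (Psap). Gene lengths in the deposited table equal the union of all exons in GENCODE M21 for 48 of the members. They are longer than the main transcript in many genes, so both lengths give only an approximate order.

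**Figure D4:**
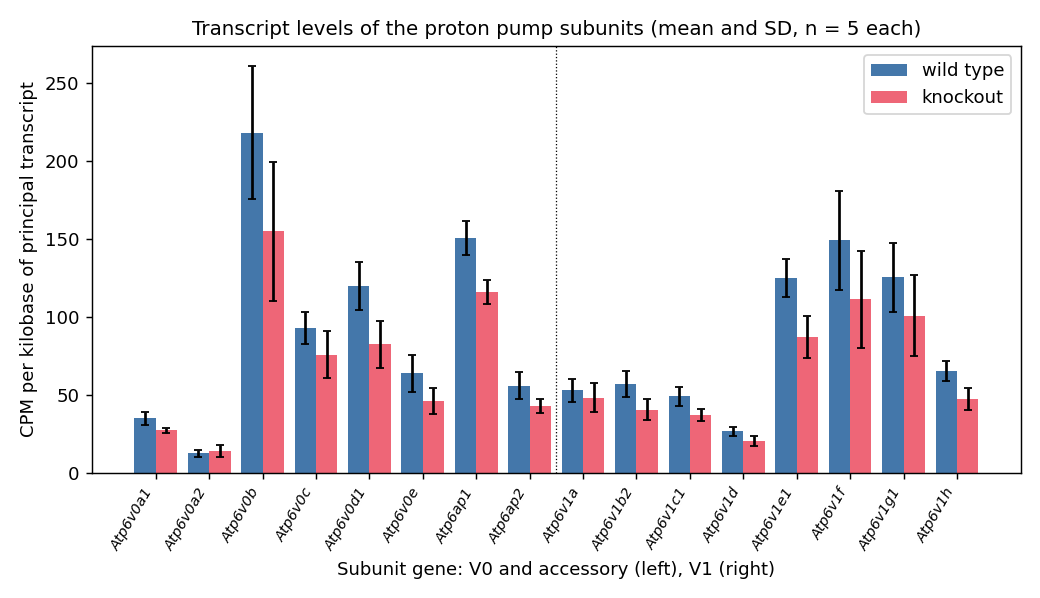
Bars are mean CPM per kilobase of the principal transcript for the 16 pump genes in wild type and knockout, with the SD over 5 libraries as error bars; V0 and accessory genes are left of the dotted line and V1 genes right. The knockout bar is shorter for all but Atp6v0a2.

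The fold changes moved with transcript length over all genes, and the longer members stood highest. Among all genes tested, the median log2 fold change was -0.16 for principal transcripts under 2000 bases, -0.049 from 2000 to under 3500, 0.071 from 3500 to under 5000 and 0.23 from 5000 bases. Of the members 11, 24, 14 and 2 belonged to these classes, and 11, 24, 10 and 0 of them were below 0, against 71.7%, 58.2%, 38.6% and 20.9% of all genes in the class. The member medians were -0.42, -0.32, -0.16 and 0.22. All 6 members above 0 had principal transcripts of 3604 bases or more. The balance of long and short genes also differed between libraries of 1 genotype: the median centred log2 CPM of genes from 5000 bases minus that of genes under 2000 was -0.64 in wild-type replicate 3 and -0.64 in knockout replicate 5, and -0.38 to 0.36 and 0.25 to 0.58 in the other libraries of wild type and knockout.

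With that length trend removed from each library as an offset, a setting chosen after the data were seen, 46 of the 51 members were below 0, against 53.0% of all genes tested, and the member median was -0.23. The pump median was -0.33, with 15 of 16 genes below 0. Non-overlapping members numbered 9, all lower (background 1.24%), and 0 passed edgeR (lowest adjusted p = 0.0697). Lamp2 went from 0.039 to -0.012, Atp6v0a2 from 0.20 to 0.017, Npc1 from 0.24 to 0.092 and Ids from 0.30 to 0.14. Arsb was at 0.53. The median of the membrane genes moved from -0.23 to -0.10.

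**Figure D5:**
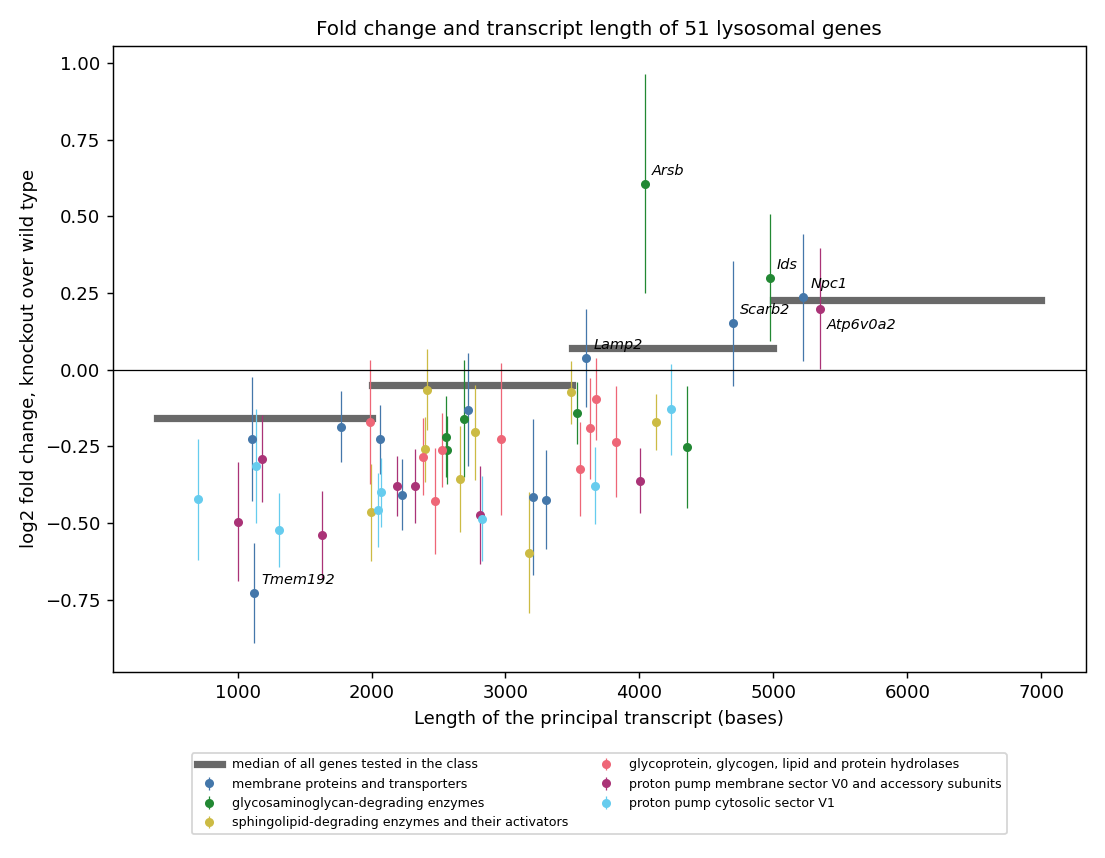
Each point is 1 of the 51 genes, with its log2 fold change (knockout over wild type, bars for the standard error) against the length of its principal transcript in bases; grey lines are the medians of all genes tested in 4 length classes, the last of which has no upper limit. The 6 genes above 0, with Tmem192, are named, and all points under 3500 bases lie below 0.

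Other genes of the lysosome were counted in the same fit, and 0 of them passed edgeR's test over all genes. DESeq2 called 2, both cathepsins and both lower (0.675% of all genes tested). An unadjusted edgeR p under 0.05 was seen as lower in 6.1% of all genes tested and as higher in 7.19%. The TFEB family and its regulators had 14 of 18 below 0, 3 with an unadjusted p under 0.05 as lower and 0 as higher (median -0.17). Tfeb lay between 12.7 and 15.2 CPM in the wild-type libraries and between 10.3 and 14.5 CPM in the knockout libraries (log2 fold change -0.20, SE 0.14), and its relatives Tfe3 and Mitf had log2 fold changes of -0.11 (SE 0.11) and -0.30 (SE 0.20). Lamtor3 and Rragc, parts of the platform that recruits mTORC1 to lysosomes, had -0.26 (SE 0.10, edgeR adjusted p = 0.343) and -0.27 (SE 0.12, adjusted p = 0.360). The mannose 6-phosphate pathway, which tags and sorts hydrolases, had 6 of 10 below 0, 1 with an unadjusted p under 0.05 as lower and 0 as higher (median -0.024). Its receptor genes Igf2r and M6pr were at 0.039 (SE 0.24) and 0.039 (SE 0.088). Sumf1, which activates the lysosomal sulfatases, had -0.30 (SE 0.10, edgeR adjusted p = 0.313), and Gnptg, a subunit of the tagging enzyme, -0.29 (SE 0.13, adjusted p = 0.382).

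Among 20 further lysosomal hydrolases the counts were nearly even, with 11 of 20 below 0 (median -0.022). An unadjusted p under 0.05 was seen for 2 as lower (6.1% of all genes tested) and 0 as higher (7.19%). The aspartylglucosaminidase gene Aga had -0.34 (SE 0.13, edgeR adjusted p = 0.343). Further membrane genes had 14 of 19 below 0, 6 with an unadjusted p under 0.05 as lower and 0 as higher (median -0.11). In 3 of them all knockout values lay below all wild-type values (1.09% of all genes tested). Glmp, which encodes a glycosylated membrane protein, was at 189 ± 26.2 CPM in the wild-type libraries and 134 ± 23.0 CPM in the knockout libraries (fitted log2 fold change -0.49 with SE 0.14; adjusted p = 0.258 by edgeR; SD, n = 5 each). Ostm1, the partner of the chloride transporter encoded by Clcn7, had -0.28 (SE 0.10, adjusted p = 0.330), and Clcn7 itself -0.33 (SE 0.14). Of 9 other pump genes 5 were measured, with 4 of 5 below 0, 1 with an unadjusted p under 0.05 as lower and 0 as higher. Tcirg1, the isoform of subunit a used by osteoclasts and also found in macrophages, was at 178 ± 62.5 CPM in the wild-type libraries and 140.0 ± 40.4 CPM in the knockout libraries (SD, n = 5 each), Atp6v0e2 had -0.85 (SE 0.29, adjusted p = 0.316), and Atp6v1b1 stayed under 2 CPM in every library. The cathepsins had 9 of 11 below 0, 4 with an unadjusted p under 0.05 as lower and 0 as higher (median -0.28). Groups did not overlap, as lower, for Ctsa (-0.48, SE 0.14) and Ctsf (-0.37, SE 0.11), against 1.09% of all genes tested. Both were at an edgeR adjusted p of 0.258.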

How the data were processed

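The authors deposited raw counts of reads for each Ensembl gene and library, as the table's values and header show. Per the submitters' processing notes, STAR 2.5, HTSeq 0.6.1, DESeq2 2 and mm10 were used, without stated roles; the annotation release and strand setting are not given there. The gene_length column of the deposited table (unit: bases, a measure of another kind) was used as written. Columns were tied to samples by library name and groups came from titles. No 2 libraries agreed within sampling noise (lowest chi-square per degree of freedom 19.1).

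Genes were filtered with filterByExpr (14360 of 28582 with a count) and tested with edgeR 4.0.16 (R 4.3.3; quasi-likelihood F test, TMM, no covariate, Benjamini-Hochberg over all genes, threshold 0.05). Standard errors are the absolute log2 fold change over the square root of F. CPM used TMM-scaled library sizes; log2 CPM used a prior count of 2. DESeq2 1.42.0 and limma-voom (3.58.1) were alternatives. The edgeR code was checked on simulated counts. Floors of 3 counts were 0.100 to 0.153 CPM (counting error only). The 51 members, the lists and the tests were chosen with earlier results of these data known. Members named with values are, per role, those with the smallest p, the most CPM per kilobase, and the highest and lowest fold change; those without overlap; those called; and 2 genes per other list by p. A gene that this rule picks among the other hydrolases is not reported here. Further genes of the lists are named after their values were seen. The members Lamp1, Npc1, Cln3, Idua, Hexa, Glb1 and Ppt1 overlap another tested gene, and Cd63 and Atp6v0c have pseudogene copies in the table; their counts are less certain.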

Additional observations from a re-analysis of the deposited data

Results flagged for a closer look

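Of 102 groups of 5 libraries (51 genes in 2 genotypes), 11 held a library far from the other 4 by Dixon's criterion, where chance gives about 1 in 20 groups. Genes share libraries, so these are not independent.

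Knockout replicate 5 stood out in 4 genes. It was high for Tmem192, at 23.8 CPM (nearest other 16.8), for Atp6v0b, at 232 CPM (nearest other 149), and for Atp6v0e, at 170.1 CPM (nearest other 125). It was low for Arsb, at 8.33 CPM (nearest other 20.9).

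Wild-type replicate 5 was high for Atp6ap2, at 166 CPM (nearest other 126), Atp6v1b2, at 202 CPM (nearest other 156), and Atp6v1c1, at 124 CPM (nearest other 99.4). Wild-type replicate 2 was low for Atp6v0d1, at 152 CPM (nearest other 199.8), Atp6v1e1, at 136 CPM (nearest other 168), and Atp6v1h, at 110.5 CPM (nearest other 136). Wild-type replicate 4 was low for Galns, at 29.9 CPM (nearest other 37.3).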

How the results depend on the processing

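Of the 51 genes 40 were below 0 and 4 (Arsb, Atp6v0a2, Ids and Npc1) above 0 in all 22 other settings, and the member median stayed between -0.32 and -0.23. The members called numbered 7 with DESeq2 and 4 (Atp6v0d1, Atp6v1e1, Hexa and Tmem192) without knockout replicate 5, and 0 in the other settings; leaving out each library in turn gave 0 to 4. Over all genes the count was 2, against 243 with DESeq2, 1 with limma-voom, 1 with either length offset, 10 without wild-type replicate 3 and knockout replicate 5, 0 with the replicate number as a block, 3 without replicate 5 of both genotypes, without a low-count filter, or with the principal-length offset and no knockout replicate 5, and 1 to 203 with single libraries left out, the highest without knockout replicate 5. Non-overlapping members numbered 4, all lower (all genes as lower 1.09%), against 13 (all genes 5.66%) without replicate 5 of both genotypes, 9 (1.24%) with the principal-length offset, 10 (4.41%) with that offset and no knockout replicate 5, 15 (6.33%) without wild-type replicate 3 and knockout replicate 5, and 4 to 14 with single libraries left out (11 against 2.86% without wild-type replicate 2, 7 against 2.06% and 1.46% without wild-type replicate 3 or 4, 8 against 1.65% without knockout replicate 3, 14 against 5.35% without knockout replicate 5). Fewer libraries make overlap rarer for all genes. The median of the membrane genes was -0.10 and -0.072 under the principal-length offset with all libraries and without knockout replicate 5. Gusb turned to 0.064 and Manba to 0.0079 without replicate 5 of both genotypes, and Smpd1 to 0.064 and Laptm4a to 0.02 with the offset and no knockout replicate 5. Ctns turned to 0.018 without wild-type replicate 2, Scarb2 to -0.024 without knockout replicate 3, and Lamp2 to between -0.14 and -0.012 with either length offset and without replicate 3 of either genotype; with single libraries left out Gusb ranged from -0.25 to 0.019. Causes of these moves were not tested. The replicate block left the member median at -0.26. Same-numbered libraries correlated between -0.24 and 0.38 in their deviations from the group means, and 1 of 5 correlated best with its own number. These correlations cannot tell whether same-numbered libraries were handled together. The length offset on principal transcripts, alone or without knockout replicate 5, and the removal of wild-type replicate 3 with knockout replicate 5 were chosen after seeing the data. The lowest count of a member in a library was 135, so counting error was small for most members.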

Other observations

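The members differed widely in how stable they were among the wild-type libraries. The SD of log2 CPM over the 5 wild-type libraries was highest for Arsb (0.69), Cln3 (0.60), Lipa (0.57) and Gusb (0.45), and lowest for the activator gene Gm2a (0.10), the pump gene Atp6ap1 (0.10) and Lamp1 (0.12). For Cln3 and Gusb the SD over the knockout libraries was 0.20 and 0.12. Wild-type replicate 2 had the highest value of 14 members and wild-type replicate 5 of 20, while knockout replicate 1 had the lowest value of 16 and knockout replicate 5 of 14. For the pump, wild-type replicate 2 held 1 of the 16 highest values and knockout replicate 5 held 2 of the lowest.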
